A study of Homo sapiens with 10 samples.

Results

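The genes described here encode 10 enzymes of purine and pyrimidine nucleotide synthesis whose reactions do not take their nitrogen from glutamine: PRPS1, GART, PAICS, ADSL, ATIC, IMPDH1, IMPDH2, ADSS, DHODH and UMPS. They were chosen by name from the pathway, with earlier results of these data known. All 10 were found among the 36498 genes of the deposited table. The cells were AsPC-1, an established cell line of human pancreatic ductal adenocarcinoma, grown beforehand in RPMI with 10% FBS, 1 mM sodium pyruvate and antibiotics. For 24 h they then received either complete medium (control, 5 libraries) or medium without glutamine and with 10% dialysed FBS (starved, 5 libraries), and total RNA was read near the 3' ends of transcripts. The labels do not say which serum the complete medium held during these hours. Dialysis removes small molecules from serum, so the absence of glutamine and a change of serum cannot be told apart. All libraries come from the same line, and nothing in the labels says that replicates were separate cultures, so p-values measure the spread between these libraries, which may be technical.

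Cells build purines on a ribose phosphate. PRPS1 and its relatives make the activated ribose PRPP, the enzymes PPAT, GART, PFAS, PAICS, ADSL and ATIC then assemble the ring in turn, and the product, IMP, is turned into GMP by IMPDH1 or IMPDH2 followed by GMPS, or into AMP by ADSS and ADSL. Pyrimidines are built as a ring first: CAD starts the chain, DHODH oxidises its product at the inner mitochondrial membrane, UMPS attaches PRPP and yields UMP, and CTPS1 or CTPS2 makes CTP. PPAT, PFAS, GMPS, CAD and the CTP synthases are the steps that consume glutamine, and growing tumour cells depend on the whole route to copy DNA and make RNA.

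The enzymes without a glutamine step split into those whose transcripts fell in starved cells and those whose change did not pass the test. PAICS, IMPDH1, DHODH and UMPS fell to between 14.9% and 34.5% of the control mean. GART, IMPDH2 and ADSS had starved means of 95.2%, 94.8% and 103% of control, and ATIC and PRPS1 of 72.7% and 71.1%. Levels are in CPM, which are counts scaled so that each library sums to 1000000. Changes are differences of log2(CPM + 1) tested with limma over 11202 genes, those whose average reached 5 CPM. ADSL stayed below that level, and the other 9 had a mean of at least 6.30 CPM in each group. Of these 9, 4 fell and 0 rose at an adjusted p under 0.05 (limma, Benjamini-Hochberg), where 43.3% of all tested genes were called, 26.1% lower and 17.2% higher. At an unadjusted p under 0.05, 5 were lower and 0 higher, and edgeR and DESeq2 also called 4 lower and 0 higher. In the 4 that fell, no starved library overlapped a control library, a separation that 30.4% of all tested genes showed, 17.9% with the starved libraries lower and 12.5% with them higher. The median log2 change was -0.50 over these 9 genes and -0.22 over all tested genes.

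**Figure D1:**
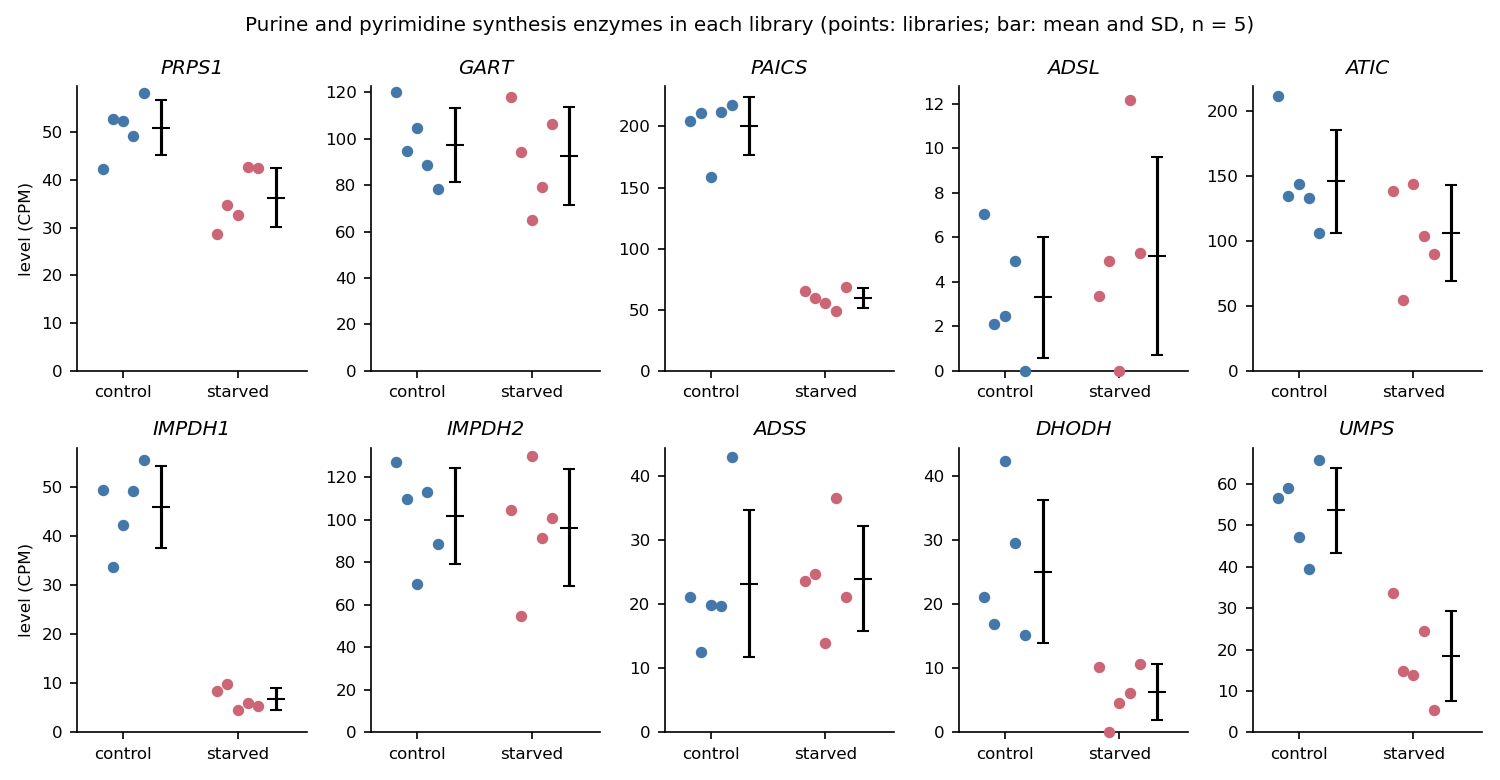
Level in CPM (vertical axes, each from 0) of each of the 10 enzymes in the 5 control and 5 starved libraries; points are libraries and bars give the mean and SD. For PAICS, IMPDH1, DHODH and UMPS all starved points lie below all control points, and for the other 6 the groups overlap.

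Counts recovered from the table ranged from 141763 to 474619 per control library and from 164008 to 593248 per starved library, so 1 count was worth 1.69 to 7.05 CPM and the least abundant enzymes rest on few counts. The epithelial origin of the cells was visible in KRT8, KRT18, KRT19, EPCAM and CEACAM6. Other markers of the list were low. CDH1 had means of 35.4 CPM in control and 19.1 CPM in starved libraries, and KRT7 of 13.7 and 12.3 CPM. MUC1 had 1 control and 0 starved counts. The 8 epithelial markers summed to between 13666 and 14646 CPM in control and between 2677 and 2886 CPM in starved libraries. Among markers of other cell types, 5 of 8 for acinar cells and 3 of 8 for endothelial cells were at 0 throughout. COL3A1 and DCN of the fibroblast list and HBB of the leukocyte list were also at 0, whereas LYZ and CD68 of the leukocyte list and LUM of the fibroblast list had 114, 72 and 181 control and 13, 114 and 36 starved counts. In control and starved libraries the leukocyte list summed to 96.9 to 143 and 74.4 to 127 CPM, and the fibroblast list to 84.6 to 157 and 26.5 to 36.6 CPM. The endothelial list reached at most 10.1 and 54.9 CPM and the acinar list at most 2.11 and 9.30 CPM. The part of such RNA in the results was not tested. In starved cells 17 of 19 tested genes of a list of S-phase and other proliferation genes fell and 0 rose (limma). With edgeR and DESeq2, 0 of them were called higher as well. The list summed to between 2343 and 2500 CPM in control and between 683 and 813 CPM in starved libraries. It includes MKI67, a proliferation marker not limited to S phase, with means of 739 CPM in control and 273 CPM in starved libraries. The sum is therefore not specific to S phase. Of all tested genes 26.1% were called lower and 17.2% higher. The part that fewer cells in S phase may have in the nucleotide enzymes was not tested, and in bulk RNA fewer cells of a kind and less RNA per cell cannot be told apart.

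The start regions of the 4 genes that fell are shown because genes of nucleotide synthesis are known targets of MYC, which binds the E-box CACGTG. Each run is the RefSeq window of build GRCh38.p14 from 250 bases before to 50 bases after a transcript start, 5' to 3' on the strand of the gene, with every CACGTG in capitals.
PAICS (chr4:56435502-56435801, plus strand): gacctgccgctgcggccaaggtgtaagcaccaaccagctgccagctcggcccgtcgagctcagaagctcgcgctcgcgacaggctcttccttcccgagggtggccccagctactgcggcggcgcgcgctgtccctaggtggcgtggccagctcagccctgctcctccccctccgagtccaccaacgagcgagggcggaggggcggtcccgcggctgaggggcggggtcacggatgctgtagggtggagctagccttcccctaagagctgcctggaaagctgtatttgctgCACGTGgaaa
IMPDH1 (chr7:128409933-128410232, minus strand): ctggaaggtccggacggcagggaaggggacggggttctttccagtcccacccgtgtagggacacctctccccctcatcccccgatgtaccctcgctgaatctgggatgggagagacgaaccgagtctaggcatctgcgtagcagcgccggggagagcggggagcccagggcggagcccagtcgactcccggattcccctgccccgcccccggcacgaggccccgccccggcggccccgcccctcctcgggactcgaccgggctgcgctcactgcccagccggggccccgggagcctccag
DHODH (chr16:72008494-72008793, plus strand): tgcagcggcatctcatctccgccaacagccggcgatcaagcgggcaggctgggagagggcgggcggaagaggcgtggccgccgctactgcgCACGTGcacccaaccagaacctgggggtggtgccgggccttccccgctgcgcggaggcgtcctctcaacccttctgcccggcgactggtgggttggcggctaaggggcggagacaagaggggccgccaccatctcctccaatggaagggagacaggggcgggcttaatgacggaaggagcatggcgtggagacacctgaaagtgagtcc
UMPS (chr3:124730202-124730501, plus strand): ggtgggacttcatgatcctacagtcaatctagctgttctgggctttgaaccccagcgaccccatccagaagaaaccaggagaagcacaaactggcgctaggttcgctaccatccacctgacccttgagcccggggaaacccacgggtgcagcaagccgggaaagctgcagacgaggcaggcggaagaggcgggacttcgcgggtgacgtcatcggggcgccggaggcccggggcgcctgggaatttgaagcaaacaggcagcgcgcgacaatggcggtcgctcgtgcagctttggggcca
PAICS has 3 windows, and the one shown is the one with an E-box, which begins at base 41 of the transcript, counted from 1 at its start. In DHODH it begins 159 bases before the start of DHODH. The windows of IMPDH1 and UMPS hold no CACGTG. Windows were found for 8 of the 10 genes, 13 in all, with ADSS listed as ADSS2. In 3 genes a window held the E-box: PAICS and DHODH, which fell, and ATIC, which did not pass the test and has a copy beginning 46 bases before its start and another at base 30 of the transcript. Counted by window, CACGTG was held by 3 of the 13 windows and by 7.26% of all 35116 windows, on either strand. The difference was not tested. The E2F-like TTTNNCGC occurred in 3 of the 13 windows, those of GART and ADSS, and in 6.89% of all windows, again on both strands. The ATF4 element TGATGNAAN, the NRF1 palindrome and the ETS site CCGGAAGTG occurred in 0 of the 13 windows and in 3.61%, 1.24% and 2.36% of all. No motif of these is contained in another. A match in these windows is a description of sequence, not of binding.

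The activated ribose PRPP, which both pathways consume, is made by PRPS1 (ENSG00000147224.10). Its level was 42.3, 52.7, 52.2, 49.2 and 58.1 CPM in control replicates 1 to 5 and 28.7, 34.7, 32.5, 42.7 and 42.5 CPM in starved replicates 1 to 5. Starved libraries lay lower, but replicates 4 and 5 reached just above the lowest control library. The log2 change of -0.49 (SE 0.26, 95% interval -1.03 to 0.05) did not pass the test (limma adjusted p = 0.137). PRPS2, which encodes the second PRPP synthetase, fell from 62.2 ± 15.8 to 17.9 ± 4.64 CPM (SD, n = 5), a log2 change of -1.75 with an SE of 0.32 (limma adjusted p = 0.000156). Its 5 starved libraries, at 11.8 to 23.2 CPM, all lay below the control libraries, at 49.4 to 88.6 CPM. The log2 ratio of PRPS1 to PRPS2 therefore moved from -0.26 ± 0.36 in control to 1.00 ± 0.31 in starved libraries, a shift of 1.26 (two-sided exact permutation p = 0.00794, the smallest that 5 against 5 allows; 0.0119 adjusted over 3 pairs). The 3 pairs were chosen with earlier results of these data known, which the adjustment over 3 pairs does not cover. PRPS1 and PRPS2 are close paralogs, and how reads shared between paralogs were counted is not stated. Of the proteins that associate with the synthetases, PRPSAP1 fell from 20.3 ± 7.91 to 6.37 ± 4.63 CPM (log2 change -1.83, limma adjusted p = 0.0413). That call was lost in 12 of 21 alternatives (limma adjusted p = 0.0504 to 0.0998), among them those without control replicate 2, 3, 4 or 5 or without starved replicate 1, 2 or 5. Without starved replicate 2 the log2 change of PRPSAP1 was -1.21. PRPSAP2 had 21 control and 17 starved counts and was not called.

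In the purine ring pathway GART, a single protein that carries out several of the early steps, was measured at similar levels in both media. GART (ENSG00000159131.16) stood at 119.9, 94.8, 104, 88.6 and 78.4 CPM in control replicates 1 to 5. Starved replicates 1 to 5 held 118, 94.2, 65.1, 79.3 and 106 CPM, across nearly the same range. Its log2 change was -0.09 (SE 0.20, 95% interval -0.50 to 0.33, limma adjusted p = 0.754), so falls of the size seen in PAICS lie outside the interval. GART overlaps SON, a splicing factor gene on the opposite strand. SON rose (log2 change 0.51, limma adjusted p = 0.000279), and since the use of strand is not given, reads of the 2 genes in the overlap cannot be told apart.

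PAICS (ENSG00000128050.8), a bifunctional enzyme that follows GART and PFAS, gave the most precisely measured fall of the set. Control replicates 1 to 5 held 205, 211, 159, 212 and 217 CPM, and starved replicates 1 to 5 held 65.7, 59.5, 55.8, 48.8 and 69.0 CPM. The highest starved library thus lay below the lowest control library by a wide margin. The mean fell 3.36-fold, from 201 ± 23.7 to 59.8 ± 8.03 CPM (SD, n = 5; log2 change -1.73, SE 0.17, limma adjusted p = 3.8e-08). PAICS pseudogenes in the table held 0 and 2 counts over all libraries. The gene starts next to PPAT on the opposite strand, and the PAICS window printed above shares 236 bases (chr4:56435566-56435801) with the start window of PPAT. The E-box of PAICS lies in the shared stretch, and in the window of PPAT it begins 182 bases before the start of PPAT.

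PPAT, the committed step of purine synthesis and a user of glutamine, stood at 49.4, 48.5, 49.7, 44.3 and 43.0 CPM in control replicates 1 to 5. In starved replicates 1 to 5 it stood at 16.9, 44.6, 18.6, 48.8 and 31.8 CPM, so the starved libraries scattered from well below the controls up into their range. The change of PPAT did not pass the test (log2 change -0.65, SE 0.33, 95% interval -1.33 to 0.03, limma adjusted p = 0.114), except without starved replicate 4 (0.0492). The log2 ratio of PAICS to PPAT moved from 2.07 ± 0.25 to 0.99 ± 0.78, a shift of -1.08, and 1 starved library lay within the range of the controls (two-sided exact permutation p = 0.0159, 0.0159 adjusted over 3 pairs). Without control replicates 1 and 2, whose library indices stand apart from the run of the others, the shift was again -1.08 with an exact permutation p of 0.0714.

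**Figure D2:**
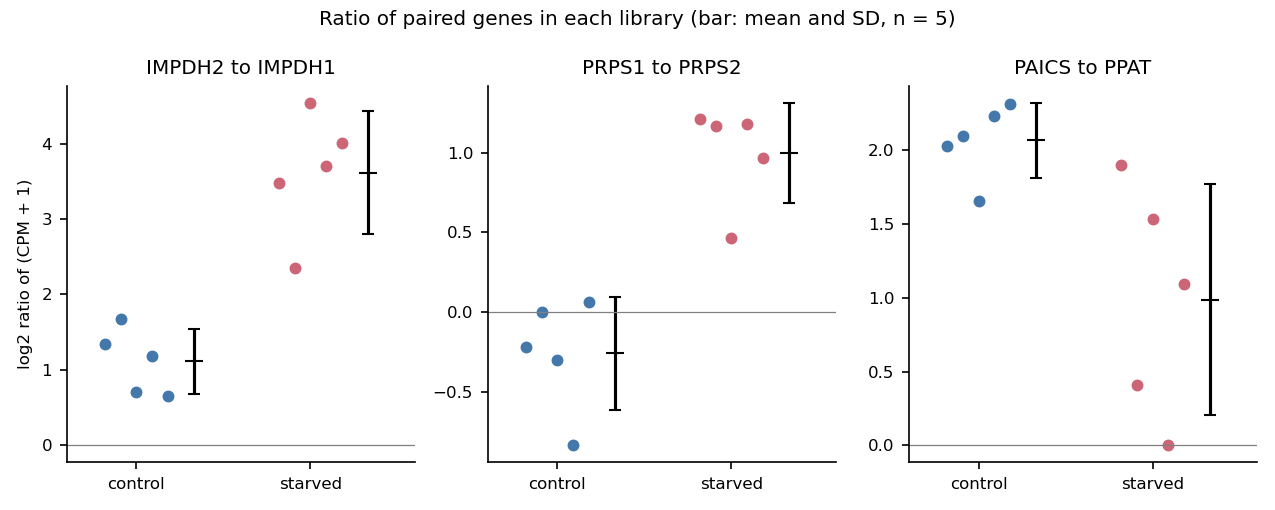
Difference of log2(CPM + 1) between the 2 genes of each pair (vertical axes) in each control and starved library; points are libraries, bars give the mean and SD (n = 5) and the grey line marks a ratio of 1. The groups are apart for IMPDH2 to IMPDH1 (means 1.11 and 3.62) and PRPS1 to PRPS2 (-0.26 and 1.00), and overlap for PAICS to PPAT (2.07 and 0.99).

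ADSL (ENSG00000239900.11), adenylosuccinate lyase, acts both in ring assembly and in the making of AMP. It had 4 counts over the control and 6 over the starved libraries, with a highest value of 7.05 CPM in control and 12.2 CPM in starved libraries. No library held more than 2 counts. Its pooled level in starved cells was 178% of control with an exact binomial 95% interval of 42.2% to 858% (counting error only), so a change in either direction was not detectable at this count. ADSL overlaps SGSM3 and the protein-coding AL022238.4 on the same strand, and how reads shared with them were counted is not stated. A low level of ADSL and reads not assigned to it cannot be told apart here.

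ATIC (ENSG00000138363.14) completes the purine ring to IMP. Its 5 control libraries held 212, 135, 144, 133 and 106 CPM and its starved libraries 138, 54.6, 144, 104 and 90.2 CPM, in the order of their replicate numbers. In 3 starved libraries the level was below every control library, while replicates 1 and 3 lay among the controls. The change of -0.50 on the log2 scale (SE 0.23, 95% interval -0.98 to -0.01) did not pass the adjusted threshold (limma adjusted p = 0.0895), and it did without starved replicate 3 (0.0443). With edgeR its adjusted p was 0.379.

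At the branch to GMP the 2 IMP dehydrogenases parted. IMPDH1 (ENSG00000106348.16) stood at 49.4, 33.7, 42.3, 49.2 and 55.6 CPM in control replicates 1 to 5. Starved replicates 1 to 5 held 8.43, 9.92, 4.65, 6.10 and 5.31 CPM, between 1 and 5 counts each. Replicates 2 to 5 had 2, 1, 1 and 1 counts, where 3 counts equal 14.9, 13.9, 18.3 and 15.9 CPM. These floors lie below the lowest control library, but the size of the fall and the spread of the starved values rest on few counts. It fell 6.69-fold, from 46.0 ± 8.35 to 6.88 ± 2.22 CPM (SD, n = 5; log2 change -2.60, SE 0.43, limma adjusted p = 5.2e-05), and over 72 control and 10 starved counts the pooled level was 16.5% of control (exact binomial 95% interval 7.59% to 32.1%). This was the lowest remaining share of control among the 9 tested enzymes. The IMPDH1 pseudogenes in the table held 1 and 0 counts.

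IMPDH2 (ENSG00000178035.11), the isoform known to be raised in proliferating cells, did not follow. Control replicates 1 to 5 held 127, 109.6, 69.6, 113 and 88.5 CPM and starved replicates 1 to 5 held 105, 54.6, 130.2, 91.5 and 101 CPM. Both the lowest and the highest value of the gene came from starved libraries. Its log2 change was -0.10 (SE 0.22, 95% interval -0.57 to 0.37, limma adjusted p = 0.751). In each library IMPDH2 was set against IMPDH1, and the log2 ratio moved from 1.11 ± 0.43 in control to 3.62 ± 0.81 in starved libraries. No starved library reached down to the highest control ratio, 2.35 against 1.67. The shift of 2.50 had a two-sided exact permutation p of 0.00794, the smallest possible, and 0.0119 adjusted over 3 pairs. Its size rests on the few starved counts of IMPDH1. Leaving out single libraries or control replicates 1 and 2 together, other pseudocounts and median-of-ratios scaling gave shifts of 2.01 to 2.82, each with an exact permutation p under 0.05. GMPS, which follows them and uses glutamine, fell from 63.1 ± 11.2 to 17.7 ± 7.86 CPM (limma adjusted p = 0.000397, with a log2 change of -1.92 and an SE of 0.39).

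On the branch to AMP, ADSS (ENSG00000035687.9), adenylosuccinate synthase, held 21.2, 12.6, 19.9, 19.7 and 43.0 CPM in control replicates 1 to 5. In starved replicates 1 to 5 it held 23.6, 24.8, 13.9, 36.6 and 21.2 CPM, and the groups overlapped throughout. The log2 change was 0.09 (SE 0.42, limma adjusted p = 0.878), and the 95% interval from -0.78 to 0.97 leaves room for nearly a doubling or a fall by nearly as much. ADSSL1, the muscle form of the enzyme, was at 0 counts throughout, which allows up to 1.85 CPM in the control and 2.20 CPM in the starved group (3 counts over a group).

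Both pyrimidine enzymes fell. DHODH (ENSG00000102967.11), the mitochondrial dehydrogenase of the pathway, was measured at 21.2, 16.9, 42.3, 29.5 and 15.2 CPM in control replicates 1 to 5. Starved replicates 1 to 5 gave 10.1, 0, 4.65, 6.10 and 10.6 CPM, all below the lowest control library. Starved replicate 2 had no count, which at its depth allows up to 14.9 CPM (3 counts). Starved replicates 3, 4 and 5 had 1, 1 and 2 counts and control replicate 1 had 3, so the separation rests on few counts. In starved replicates 4 and 5, 3 counts equal 18.3 and 15.9 CPM, above the lowest control library at 15.2 CPM. The mean fell from 25.0 ± 11.1 to 6.30 ± 4.35 CPM (SD, n = 5; log2 change -2.13, SE 0.68, limma adjusted p = 0.0142), on 40 control and 10 starved counts. The pooled level was 29.7% of control (exact binomial 95% interval 13.2% to 60.4%), and without control replicate 3 the adjusted p rose to 0.0498. Over the alternatives the log2 change ran from -2.40 to -1.44, and it was -1.52 without starved replicate 2.

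UMPS (ENSG00000114491.13), which joins PRPP to the pyrimidine ring and decarboxylates the product to UMP, had 56.4, 59.0, 47.2, 39.4 and 65.7 CPM in control replicates 1 to 5. Starved replicates 1 to 5 had 33.7, 14.9, 13.9, 24.4 and 5.31 CPM, a wider relative spread but again without overlap. The mean fell 2.90-fold, from 53.5 ± 10.3 to 18.4 ± 10.9 CPM (SD, n = 5; log2 change -1.68, SE 0.41, limma adjusted p = 0.00227). Starved replicates 1 to 5 held 20, 3, 3, 4 and 1 counts of UMPS. Over 89 control and 31 starved counts its pooled level was 41.4% of control (exact binomial 95% interval 26.6% to 62.9%). Its log2 change ran from -1.94 to -1.19 over the alternatives, and was -1.19 with edgeR and -1.30 with DESeq2. CAD, the glutamine-using enzyme that starts the same chain, fell from 47.1 ± 13.4 to 15.9 ± 9.72 CPM (limma adjusted p = 0.00360, with a log2 change of -1.68 and an SE of 0.44). For the pyrimidine route, the falls of CAD, DHODH and UMPS lie within each other's 95% intervals.

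**Figure D3:**
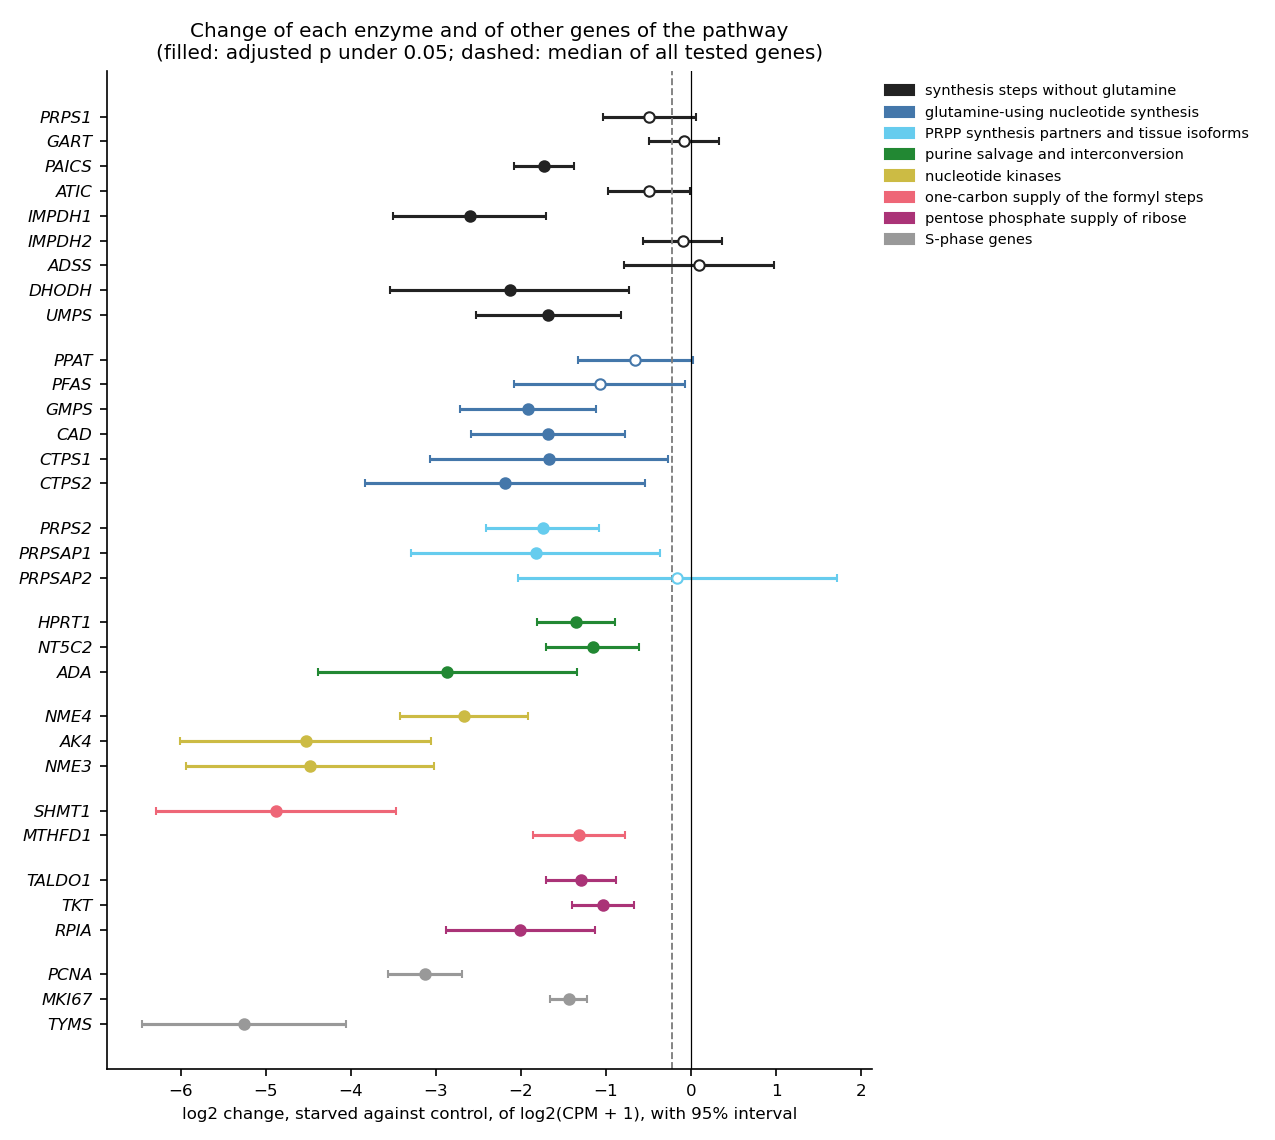
Log2 change between starved and control libraries (horizontal axis) with its 95% interval from limma for the 9 tested enzymes (black) and for other genes of the pathway and its supply, grouped by list; filled points passed an adjusted p of 0.05, the solid line marks 0 and the dashed line the median of all tested genes, -0.22. The intervals of GART, IMPDH2, ADSS and PRPS1 span 0, and that of ATIC, which was not called, ends at -0.01. PAICS, IMPDH1, DHODH and UMPS lie at -1.73, -2.60, -2.13 and -1.68.

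The steps that do use glutamine gave 4 falls among 6 tested genes and 0 rises (limma; edgeR and DESeq2 called 0 higher), with a median log2 change of -1.68. Besides GMPS and CAD these were the CTP synthases CTPS1, from 51 to 20 counts (limma adjusted p = 0.0499), and CTPS2, from 27 to 6 counts (limma adjusted p = 0.0307). The calls of CTPS1 and CTPS2 were lost in 13 and 7 of 21 alternatives, the log2 change of CTPS1 went from -1.67 to -0.83 without starved replicate 4, and the count of falls dropped to 2 with DESeq2, without control replicate 2, 3 or 4 and without control replicates 1 and 2 together. PFAS had 27.3 ± 9.31 and 12.9 ± 5.64 CPM and did not pass the test (limma adjusted p = 0.0768). For comparison, limma called 26.1% of all tested genes lower and 17.2% higher. Whether the steps with and without glutamine differ as groups was not tested.

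Among genes that salvage or interconvert purines 3 of 10 tested fell and 1 rose, shares near those of all tested genes (26.1% lower, 17.2% higher). HPRT1, which rebuilds IMP and GMP from free bases, fell from 121 ± 25.6 to 47.0 ± 11.5 CPM (limma adjusted p = 4.3e-05), the nucleotidase NT5C2 from 74.7 ± 18.8 to 32.6 ± 6.60 CPM, and ADA, adenosine deaminase, from 21.0 ± 12.1 to 2.67 ± 2.53 CPM on 29 and 4 counts. The gene that rose was PNP, purine nucleoside phosphorylase, from 20.6 ± 4.14 to 42.5 ± 16.3 CPM (limma adjusted p = 0.0398). PNP was named after its values were seen, and the count of rises in this list ran from 0 to 3 over the alternatives, 0 of them without control replicate 3 or 5 or starved replicate 1, 2, 3 or 4. Of 11 tested nucleotide kinases 7 fell and 0 rose, where edgeR called 1 higher and DESeq2 0. The mitochondrial AK4 went from 78 to 3 counts, NME3 from 84 to 4 counts and NME4 from 85.2 ± 24.0 to 13.2 ± 5.66 CPM (limma adjusted p = 4.1e-06).

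Genes of the supply routes fell as well. Of 7 tested genes that carry one-carbon units to the formyl steps of GART and ATIC, 4 fell and 1 rose. MTHFD1, the cytosolic enzyme that makes the formyl donor, fell from 70.5 ± 4.80 to 28.1 ± 5.73 CPM (limma adjusted p = 0.000303), and SHMT1, which loads the carrier from serine, from 45 to 0 counts (at least 12.6-fold lower, with 3 counts over the starved group as the floor). The pentose phosphate pathway, the source of ribose, had 5 falls and 0 rises among 7 tested genes (limma; edgeR and DESeq2 called 0 higher). RPIA, which makes ribose 5-phosphate, fell from 50.5 ± 14.7 to 12.7 ± 6.42 CPM, TALDO1 from 199.6 ± 21.1 to 84.1 ± 31.6 CPM and TKT from 193 ± 20.5 to 96.0 ± 25.1 CPM. Over the 63 tested genes of all these lists, the S-phase list included, 42 fell and 2 rose. Their median log2 change was -1.43 against -0.22 over all tested genes. The S-phase list alone gave 19 of these genes and 17 of the falls, with a median of -1.83. Medians of the other lists ran from -1.75 for the PRPP partners to -0.80 for purine salvage. The shares over all tested genes were 26.1% lower and 17.2% higher. In the list of S-phase and other proliferation genes, the smallest p belonged to PCNA, MKI67 and TYMS, which all fell.

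Scaling the libraries differently did not turn the direction of any of the 4 falls. Relative to the median change of all tested genes, -0.22, the falls were -1.51 for PAICS, -2.38 for IMPDH1, -1.91 for DHODH and -1.46 for UMPS. That median moved by 0.21 with quantile normalization, by 0.14 with edgeR and by 0.12 with DESeq2. On the same relative scale GART stood at 0.14, IMPDH2 at 0.12, ADSS at 0.32, ATIC at -0.27 and PRPS1 at -0.27, so the sign of the first 2 depends on the reference. GART was above 0 with TMM scaling, edgeR and DESeq2, and IMPDH2 with edgeR and DESeq2, never past the threshold.

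**Figure D4:**
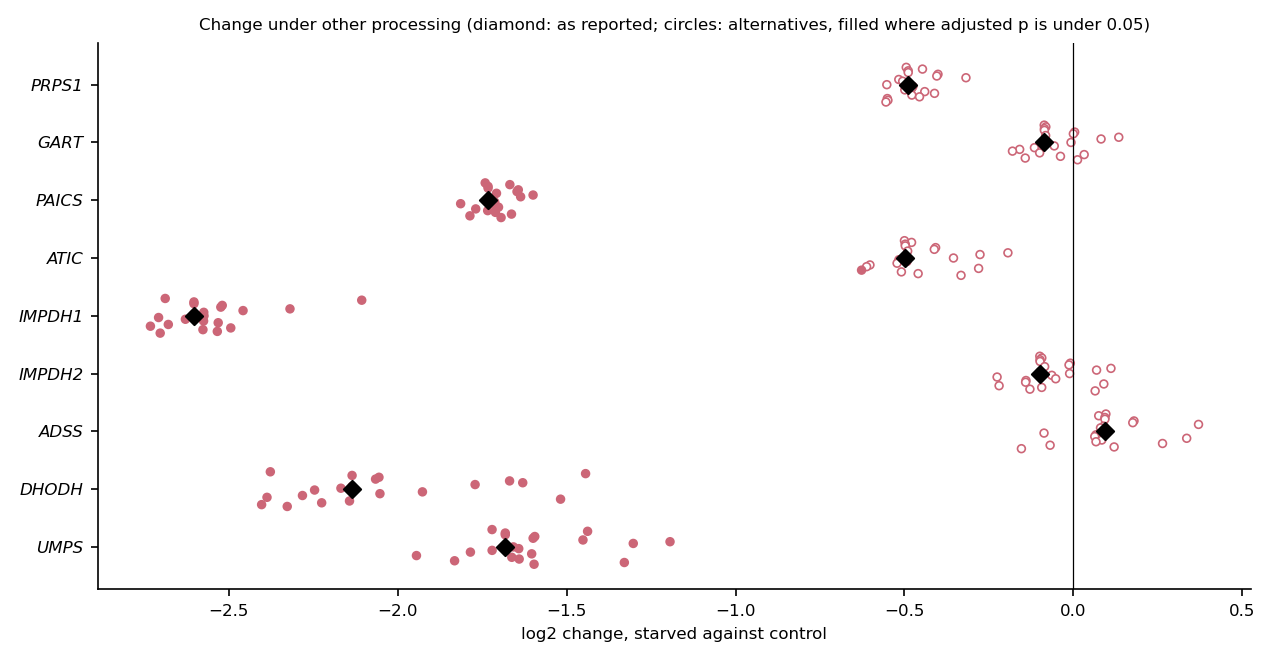
Log2 change between starved and control libraries (horizontal axis) of the 9 tested enzymes as reported (diamonds) and under each alternative (circles, filled where the adjusted p was under 0.05); vertical offsets only separate the points. PAICS stays between -1.81 and -1.60 and IMPDH1 between -2.73 and -2.11, and the points of GART, IMPDH2 and ADSS lie on both sides of 0.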

How the data were processed

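The deposited values are CPM, and per the labels' protocols the library kit was QIAseq UPX 3'. Per the submitters' processing notes the build was hg19. Not given in the sources used here are aligner, counter, annotation, strand and molecular identifiers. Every value above 0 (100%) was a whole multiple of the smallest in its column (relative tolerance 1e-06), which gave counts back. Groups were compared with limma-trend (version 3.58.1 in R 4.3.3), two-sided, without covariates, on log2(CPM + 1) over the 11202 genes averaging 5 CPM or more, Benjamini-Hochberg adjusted over all of them, threshold 0.05. Ratios of 3 gene pairs were compared with exact permutation tests (scipy 1.17.1). The alternatives included edgeR 4.0.16 and DESeq2 1.42.0 on the recovered counts. The methods were also run on simulated counts with far fewer changed genes and a fixed spread between libraries. Their error rates in the real data were not measured by this. The floor was 3 counts. Exact binomial intervals and floors cover counting error only, and limma's intervals the spread between libraries. Named were the 10 enzymes, the detected genes of the lists of glutamine-using enzymes and of PRPP partners, and the 3 genes with the smallest p of each other list; of the one-carbon list, 2 genes that count in its totals are not reported here. Members, pairs and lists were chosen with earlier results of these data known. Overlapping genes came from GENCODE 29.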

Additional observations from a re-analysis of the deposited data

Results flagged for a closer look

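In 44 sets of 5 libraries (the enzymes, their glutamine-using and PRPP partners and the 3 ratios, in each medium), 3 held a library far from the other 4, where chance gives about 1 in 20. PAICS in control replicate 3 was 159 CPM against 205 to 217 CPM in the other controls, still far above every starved library. ADSS in control replicate 5 was 43.0 CPM against 12.6 to 21.2 CPM in the other controls. CTPS1 had 0 CPM in starved replicate 4 against 15.2 to 19.8 CPM in the other starved libraries, and 3 counts there equal 18.3 CPM.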

How the results depend on the processing

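The falls of PAICS, IMPDH1 and UMPS kept their direction and side of the threshold in all 21 alternatives, and that of DHODH in the 20 in which it was tested, since it was too low for a filter at 20 CPM. The enzymes called lower numbered 3 to 5. Without a filter ADSL was tested and not called (limma adjusted p = 0.804). The shift of PAICS to PPAT missed the threshold without control replicates 1 and 2 together (-1.08, exact permutation p = 0.0714). The uncalled GART changed sign with TMM scaling (0.0035), edgeR (0.13), DESeq2 (0.082) and without control replicates 1 and 2 together (0.012), and ran from -0.18 to 0.032 as single libraries were left out. IMPDH2 did so with edgeR (0.11), DESeq2 (0.068) and without control replicates 1 and 2 together (0.064), and ADSS without those 2 (-0.15); leaving out single libraries gave -0.23 to 0.090 for IMPDH2 and -0.087 to 0.33 for ADSS. PRPSAP2 turned with quantile normalization (0.20) and edgeR (0.017), and ran from -0.93 to 0.57 without single libraries. Genes of the other lists called higher numbered 2, but 1 with a filter at 20 CPM, 4 with TMM or median-of-ratios scaling, 5 with edgeR and 1 to 3 without single libraries; the cause was not tested. Same-numbered libraries did not deviate together (r from -0.02 to 0.02), and no replicate number correlated best with itself. With a replicate block ATIC was called (adjusted p = 0.0406), and calls over all genes numbered 1915 higher and 2886 lower. Depth limits the enzymes with few counts, such as ADSL.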
